A study of Mus musculus with 3 samples.

Results

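The genes described here act at the G1 step of the cell cycle: the D cyclins *Ccnd1*, *Ccnd2* and *Ccnd3*, the kinases *Cdk4* and *Cdk6*, the inhibitors *Cdkn1a* and *Cdkn1b*, and *Myc*. They are the 8 rows of the 32285 in the count matrices whose gene symbol is one of these names. All 8 had a mean of at least 5 counts per 1000000 UMIs of its library (CPM), as did 9057 genes in all.

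Single-cell RNA was sequenced from bone marrow derived macrophages (BMDMs) of female C3H/HeN mice aged 6 to 8 weeks. The cells were differentiated in medium conditioned by L929 cells, which supplies M-CSF. For the reseeding overnight and the treatment that followed, the methods of the study name fresh medium and no conditioned medium. LP1 and LP4 cells received *Bb*LP, purified lipoproteins of *Borrelia burgdorferi*, at 1 µg/mL for 1 or 4 hours, and Ctrl cells, labelled untreated, received PBS. According to the methods of the study, wells from separate mice were combined before capture, Ctrl was collected with LP4 at 4 hours and LP1 at 1 hour, so for LP1 against Ctrl the treatment and the time of collection cannot be told apart. Each group is 1 library, so no test between conditions was run, and every interval below covers counting error only.

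D cyclins bind CDK4 or CDK6, and the kinase phosphorylates RB, which releases E2F factors that turn on S phase genes. p21 (*Cdkn1a*) and p27 (*Cdkn1b*) block CDK2 complexes and also help D cyclin complexes to assemble, and p21 is a textbook target of p53. MYC, a short-lived transcription factor that binds E-boxes with MAX, drives growth genes. In cultured macrophages M-CSF induces D cyclins and *Myc* and drives division, and bacterial lipopolysaccharide is known to halt that division.

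Promoter sequences are shown for *Cdk4* and *Ccnd3*, which were both lower in LP4, and for *Cdk6*, the partner kinase whose level over all cells differed little. The table of RefSeq promoters on GRCm38.p6 held 7 windows for 5 of the genes, *Ccnd3*, *Cdk4*, *Cdk6*, *Cdkn1a* and *Cdkn1b*, and none for *Ccnd1*, *Ccnd2* or *Myc*. Each line gives the 250 bases before the start site, 5′ to 3′ on the plus strand, with CACGTG (E-box), GGGCGG (GC box) and CCAAT, on either strand, in capitals. The windows are chr10:127063285-127063534 for *Cdk4*, chr17:47593217-47593466 for *Ccnd3* (the downstream of its 2 start sites) and chr5:3343643-3343892 for *Cdk6*.
Cdk4: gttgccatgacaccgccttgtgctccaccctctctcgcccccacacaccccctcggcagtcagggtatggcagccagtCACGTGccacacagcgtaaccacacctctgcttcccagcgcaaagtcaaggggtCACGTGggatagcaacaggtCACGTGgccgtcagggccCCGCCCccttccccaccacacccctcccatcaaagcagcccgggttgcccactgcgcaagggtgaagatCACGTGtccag
Ccnd3: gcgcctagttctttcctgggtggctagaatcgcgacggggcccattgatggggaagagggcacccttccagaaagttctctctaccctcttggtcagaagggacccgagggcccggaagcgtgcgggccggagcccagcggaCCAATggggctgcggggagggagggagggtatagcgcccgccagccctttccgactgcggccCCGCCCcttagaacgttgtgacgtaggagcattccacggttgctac
Cdk6: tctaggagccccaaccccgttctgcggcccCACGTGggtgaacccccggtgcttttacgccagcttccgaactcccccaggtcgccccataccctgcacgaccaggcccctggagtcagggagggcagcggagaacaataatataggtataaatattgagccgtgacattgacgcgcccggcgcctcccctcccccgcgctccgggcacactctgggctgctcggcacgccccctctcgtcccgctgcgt

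*Cdk4* held 4 E-boxes in these 250 bases, and *Cdk6* held 1. Of 32851 promoter windows of this length 6.02% held at least 1 CACGTG, and 7 windows (0.0213%) held 4 or more. The windows of *Ccnd3*, *Cdkn1a* and *Cdkn1b* held none. GGGCGG occurred upstream of *Cdk4*, *Cdkn1b* and the downstream start of *Cdkn1a* and at both starts of *Ccnd3*, against 32.7% of all windows, and CCAAT upstream of *Cdkn1b* and at the downstream start of *Ccnd3*, against 33.8%. The window of *Cdk6* held TATAAA (12.4% of all windows). None of the 7 windows held the AP-1 motif TGANTCA, the CRE TGACGTCA, the E2F motif TTTNGCGC, or the NF-kB or ISRE core motif, which stood in 6.75%, 1.55%, 1.13%, 1.41% and 2.98% of all windows. A match of letters is a description and not a binding site.

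After cells were selected with the limits on UMIs, genes and mitochondrial share that the study states, 6071 Ctrl, 5065 LP1 and 4670 LP4 cells were kept, of 6123, 5119 and 5039 barcodes. These are more cells than the study itself went on with, and the step behind that difference is not given in the sources used here. The kept cells held 35688939, 52475723 and 61402275 UMIs, with medians per cell of 5133, 9343 and 11784. Median mitochondrial shares were 1.97%, 2.84% and 3.17%, and the 5% limit removed 18, 43 and 273 barcodes, so LP4 is both the deepest library and the one that lost most cells. The libraries share 4 to 10 barcode sequences in each pair. All 8 macrophage markers (*Csf1r*, *Adgre1*, *Cd68*, *Fcgr1*, *Mertk*, *Lyz2*, *C1qa*, *Cd14*) were present at a summed 11566 to 12103 CPM, neutrophil genes at 458 to 713 CPM, dendritic cell genes at 32.9 to 42.6 CPM, stromal genes at 3.47 to 15.4 CPM with LP4 highest, mast cell and basophil genes at 1.17 to 5.18 CPM, and lymphocyte genes at 0.532 to 0.705 CPM, with *Cd3e* at 0 UMIs in every library.

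A gene was called where its CPM differed by at least 1.5-fold between 2 libraries. None of the 8 was called in LP1 against Ctrl, where 4.17% of all 9057 genes were called higher and 2.84% lower. In LP4 against Ctrl 1 was higher, *Ccnd2*, and 3 were lower, *Ccnd3*, *Cdk4* and *Myc*, where 19.1% of all genes were higher and 23.6% lower. *Ccnd2* reached the 5 CPM minimum only through its LP4 level, so the filter favoured its call and nothing is read from that count. *Myc* reached it only through its Ctrl and LP1 levels, so the filter favoured its lower calls in LP4. Nothing is read from the counts of lower genes either. In LP4 against LP1 *Ccnd2* was again the 1 higher gene and 4 were lower, *Ccnd1*, *Ccnd3*, *Cdk4* and *Myc*, against 15.3% and 19.2% of all genes. The split over all genes depends on the scaling, since with TMM factors 25.3% were higher and 16.7% lower in LP4 over Ctrl and with median-of-ratios factors 26.7% and 15.4%, and the median log2 ratio of all genes moved from -0.09 to 0.08 and 0.12. With both, the 1 gene called higher was *Ccnd2* and those called lower were *Ccnd3* and *Myc*. For LP1 over Ctrl, LP4 over Ctrl and LP4 over LP1 the 8 genes had median log2 ratios of 0.19, -0.52 and -0.68, and all genes tested had medians of -0.02, -0.09 and -0.08. Both LP4 comparisons share the LP4 library.

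**Figure D1:**
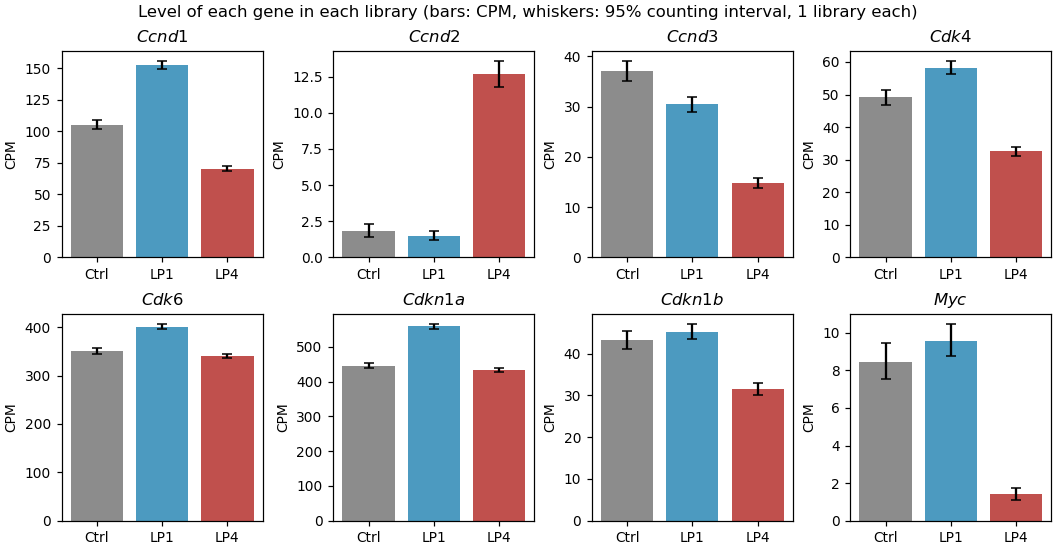
Level of each of the 8 genes in the 3 libraries, as CPM with 95% counting intervals, each panel on its own axis from 0. *Ccnd2* stands at 12.7 CPM in LP4 against under 2 in the other libraries, and *Myc* at 1.40 CPM in LP4 against 8.46 and 9.59 CPM in Ctrl and LP1.

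*Ccnd1*, which encodes cyclin D1 (ENSMUSG00000070348, minus strand of chr7:144929931-144939925), stood at 105 CPM in Ctrl (95% interval 102 to 109), 152 CPM in LP1 (149 to 156) and 70.2 CPM in LP4 (68.1 to 72.3). It was highest at 1 hour and lowest at 4 hours, and the 3 intervals do not overlap. The log2 ratio was 0.54 in LP1 over Ctrl (0.48 to 0.59), a 1.45-fold difference, and -1.12 in LP4 over LP1 (-1.17 to -1.07). The log2 ratio of LP4 over Ctrl, -0.58 (-0.65 to -0.52), is a 1.497-fold difference and lies just under the fold that counts as called, as *Cdk4* lies just over it.

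*Ccnd2* encodes cyclin D2 (ENSMUSG00000000184, minus strand of chr6:127125162-127152193). It had 64 UMIs in Ctrl (1.79 CPM, 1.38 to 2.29), 78 in LP1 (1.49 CPM, 1.18 to 1.86) and 779 in LP4 (12.7 CPM, 11.8 to 13.6). Ctrl and LP1 overlap and LP4 stands apart, 7.08-fold above Ctrl with a log2 ratio of 2.82 (2.45 to 3.21) and 3.09 above LP1 (2.76 to 3.45).

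*Ccnd3* encodes cyclin D3 (ENSMUSG00000034165, plus strand of chr17:47505051-47599691). Its level was 37.1 CPM in Ctrl (35.1 to 39.1), 30.5 CPM in LP1 (29.0 to 32.0) and 14.7 CPM in LP4 (13.8 to 15.7). It was lowest at 4 hours, 2.52-fold below Ctrl, with a log2 ratio of -1.33 (-1.46 to -1.21), and the LP1 ratio of -0.28 (-0.39 to -0.18) was in the same direction. At 4 hours the D cyclins thus went different ways, with *Ccnd3* lower, *Ccnd2* higher and *Ccnd1* lower by less than the fold called. No stretch of over 20 bases is identical between transcripts of any pair of the D cyclins in GENCODE vM21, and the same holds for *Cdk4* and *Cdk6*, while *Cdkn1a* and *Cdkn1b* share at most 23 bases.

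*Cdk4* (ENSMUSG00000006728, plus strand of chr10:127063534-127067920), a kinase partner of the D cyclins, stood at 49.1 CPM in Ctrl (46.9 to 51.5), 58.3 CPM in LP1 (56.2 to 60.4) and 32.6 CPM in LP4 (31.1 to 34.0). Its log2 ratio was 0.25 in LP1 over Ctrl (0.16 to 0.33), -0.59 in LP4 over Ctrl (-0.69 to -0.50) and -0.84 in LP4 over LP1 (-0.92 to -0.76). The 1.51-fold difference of LP4 from Ctrl is just past the fold called and was -0.42 and -0.39 on the log2 scale with TMM and median-of-ratios scaling, under which *Cdk4* was not called. Genes on the opposite strand overlap *Cdk4* (*Tspan31*), *Ccnd1* (LTO1), *Ccnd3* (*Bysl*), *Ccnd2*, *Cdk6* and *Cdkn1a*, and whether the counting used strand is not given in the sources used here.

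*Cdk6* (ENSMUSG00000040274, plus strand of chr5:3341485-3531008), the other D cyclin kinase, had 351 CPM in Ctrl (345 to 357), 401 CPM in LP1 (396 to 406) and 341 CPM in LP4 (336 to 346). The LP1 library was highest, by a log2 ratio of 0.19 over Ctrl (0.16 to 0.22), and LP4 lay within 1.03-fold of Ctrl, with a log2 ratio of -0.04 (-0.07 to -0.01) that became 0.13 and 0.17 with the other scalings and 0.04 as a mean of per-cell shares. This small difference over all cells summed opposite differences in separate cell classes, given further on.

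*Cdkn1a*, the gene of p21 (ENSMUSG00000023067, plus strand of chr17:29090976-29100727), had 445 CPM in Ctrl (438 to 452), 558 CPM in LP1 (552 to 565) and 433 CPM in LP4 (428 to 438). LP1 was highest, at a log2 ratio of 0.33 over Ctrl (0.30 to 0.36), which is under the fold called. In LP4 the log2 ratio to Ctrl was -0.04 (-0.07 to -0.01), which became 0.13 and 0.17 with the other scalings and 0.01 as a mean of per-cell shares.

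*Cdkn1b*, the gene of p27 (ENSMUSG00000003031, plus strand of chr6:134920401-134925513), had 43.3 CPM in Ctrl (41.1 to 45.5), 45.2 CPM in LP1 (43.4 to 47.0) and 31.4 CPM in LP4 (30.0 to 32.9). Ctrl and LP1 overlap, with a log2 ratio of 0.06 (-0.03 to 0.16). LP4 lay below both, by a log2 ratio of -0.46 to Ctrl (-0.56 to -0.36), a 1.38-fold difference that is not called.

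*Myc* (ENSMUSG00000022346, plus strand of chr15:61985391-61990374) had 302 UMIs in Ctrl (8.46 CPM, 7.53 to 9.47), 503 in LP1 (9.59 CPM, 8.77 to 10.5) and 86 in LP4 (1.40 CPM, 1.12 to 1.73). Ctrl and LP1 overlap, with a log2 ratio of 0.18 (-0.03 to 0.39), and LP4 stands apart from both. *Myc* fell 6.04-fold from Ctrl to LP4, a log2 ratio of -2.59 (-2.96 to -2.24), and 0.916% of all genes tested had a ratio at or below it. Against LP1 the log2 ratio was -2.77 (-3.12 to -2.44).

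Shares of cells with at least 1 UMI were compared after each cell was thinned at random to 2000 UMIs, since depth differs between the libraries. This left out 122 Ctrl, 13 LP1 and 45 LP4 cells with fewer UMIs. A *Ccnd1* UMI was seen in 13.5% (exact binomial interval 12.6 to 14.4) of cells in Ctrl, in 18.5% (17.4 to 19.6) in LP1 and in 9.25% (8.43 to 10.1) in LP4, the same order as its CPM. Without thinning the shares were 26.2%, 43.2% and 30.0%, where LP4 lies above Ctrl, an order that goes against the CPM.

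*Ccnd2* was seen in 0.269%, 0.297% and 2.12% (1.72 to 2.58) of thinned cells from Ctrl, LP1 and LP4, and *Ccnd3* in 6.91%, 6.08% and 2.59%. For both genes LP4 stood apart. *Cdk4* was seen in 9.06%, 9.66% and 6.72% of cells and *Cdkn1b* in 8.35%, 8.69% and 5.88%, with LP4 lowest for both genes. *Cdk6* reached 42.9%, 48.5% and 45.6% and *Cdkn1a* 54.5%, 61.8% and 52.6%, so these transcripts were found in about as many LP4 cells as Ctrl cells. *Myc* was seen in 1.41% (1.13 to 1.75), 2.12% (1.74 to 2.55) and 0.216% (0.104 to 0.397), and without thinning in 4.58%, 8.77% and 1.63%.

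Neutrophil-like cells, with at least 200 UMIs per 10000 from neutrophil genes, served as the comparison for free RNA, with 21, 20 and 27 thinned cells and median depths of 3947, 6220 and 9220 UMIs, against 5194, 9353 and 11838 in all thinned cells. *Ccnd1* was seen in 1 of 21, 1 of 20 and 0 of 27 of them, and 0 of 27 allows a share of up to 12.8%, so this number of cells sets no tight background. *Cdk4* was seen in 1, 1 and 0 of them, *Ccnd2* in 0, 0 and 1 and *Cdkn1b* in 1, 4 and 4, and the shares of these genes over all cells lie within the counting error of such numbers. For *Ccnd1* the thinned share was 22.2%, 28.5% and 18.6% in the cell class called the Fgf13 side below and 0.524%, 0.627% and 0.367% in the Apoe side. The part of free RNA in these shares was not tested. *Ccnd3* was seen in 5, 9 and 6 of these cells, above its share among all cells, *Cdk6* in 7, 8 and 6 and *Cdkn1a* in 4, 4 and 16, so for these genes such cells are no blank. *Myc* was seen in 0 of 21, 0 of 20 and 3 of 27. In LP4 the neutrophil-like cells held *Myc* at 36.2 CPM (15.6 to 71.4), against 1.40 CPM over all LP4 cells, so they are no blank for *Myc* there. The LP4 share of *Myc* over all cells thus has no background to set it against and is not read as expression.

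**Figure D2:**
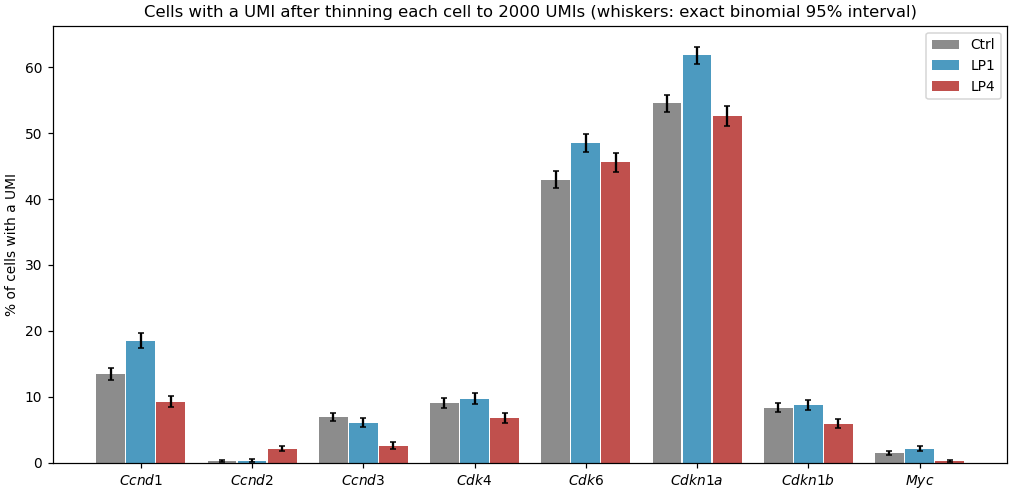
Percent of cells with at least 1 UMI of each gene after thinning to 2000 UMIs, with exact binomial 95% intervals, by library. *Ccnd1* is highest in LP1, *Ccnd2* reaches 2.12% in LP4, *Myc* is at 0.216% in LP4, and *Cdk6* and *Cdkn1a* differ little between Ctrl and LP4.

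To see in which cells the differences lay, cells were placed in classes by genes outside the 8. S-like and G2/M-like cells had at least 20 UMIs per 10000 from S phase genes or from G2 and mitosis genes. Over all cells the S phase gene *Pcna* stood at 104.5 CPM in Ctrl and 230 CPM in LP4, while 10 of the 18 tested were lower in LP4. S-like cells thus need not correspond between libraries. The other cells were ranked within each library from those rich in *Fgf13* and *Lpl* to those rich in *Apoe*, *Slc9a9* and *Selenop*, and the first 25% form the Fgf13 side, the last 25% the Apoe side and the rest the middle. These classes are ranges of a score and not cell types. The study lists *Fgf13*, *Apoe* and *Slc9a9* among genes higher in Ctrl than in LP4. The median Apoe side cell had 26.7, 22.2 and 18.5 UMIs per 10000 of the Apoe side genes in Ctrl, LP1 and LP4. A side thus need not hold corresponding cells in each library. The part of this in ratios and shares by class was not tested. A median Fgf13 side cell still had 1.30, 1.18 and 1.47 UMIs per 10000 of the Apoe side genes in Ctrl, LP1 and LP4, and 170, 191 and 124 cells lay within 5 UMIs per 10000 below the cycling limit. The S-like class held 229, 252 and 55 cells (3.77%, 4.98% and 1.18%) and the G2/M-like class 317, 284 and 182 (5.22%, 5.61% and 3.90%), numbers that follow from the levels of their own genes and are not compared. The Apoe side held fewer UMIs per cell, a median of 3880, 6767 and 8960.

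*Ccnd1* was highest in S-like cells, at 383, 477 and 297 CPM in the order Ctrl, LP1 and LP4, used from here on. It stood at 148, 204 and 118 CPM on the Fgf13 side and at 2.82, 4.43 and 1.92 CPM on the Apoe side, from 16, 37 and 20 UMIs. The Fgf13 side exceeded the Apoe side by log2 ratios of 5.71, 5.53 and 5.94, the widest gap between sides among the 8 genes. The study pairs *Fgf13* with *Ccnd1* as markers of the same clusters in these data. A gap for *Ccnd1* was thus built into the choice of score genes, and nothing is read from its width. Within each class *Ccnd1* kept the order of the libraries, with log2 ratios of LP4 over Ctrl from -0.57 in the middle to -0.33 on the Fgf13 side, though on the Apoe side the intervals of LP1 and LP4 over Ctrl include 0. Without the S-like and G2/M-like cells the LP4 over Ctrl ratio over all cells was -0.43, against -0.58 with them.

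*Cdk4* followed the cycling cells as well, at 98.4, 115 and 79.7 CPM in S-like cells against 45.0, 50.4 and 28.2 CPM in the middle. In LP4 over Ctrl its log2 ratio ran from -0.90 on the Apoe side (-1.18 to -0.62) to -0.15 in G2/M-like cells (-0.44 to 0.14), and it was below 0 in all 5 classes. *Ccnd3* ran the other way from *Ccnd1* in Ctrl, with 59.1 CPM on the Apoe side (52.9 to 65.7) and 26.4 CPM on the Fgf13 side (23.1 to 30.0). In LP4 this order was turned, at 9.59 CPM on the Apoe side (7.80 to 11.7) and 18.3 CPM on the Fgf13 side (16.2 to 20.5). The log2 ratio of LP4 over Ctrl for *Ccnd3* was -2.62 on the Apoe side (-2.96 to -2.30) and -0.53 on the Fgf13 side (-0.78 to -0.28), with the other classes between them. Neutrophil-like cells held more *Ccnd3* than any of the 5 classes, at 225, 231 and 136 CPM from 23, 31 and 30 UMIs.

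*Ccnd2* in LP4 was 18.1 CPM on the Apoe side (15.6 to 20.9), 11.1 CPM in the middle and 9.52 CPM on the Fgf13 side (8.09 to 11.1), against 0.705, 1.18 and 1.63 CPM in Ctrl. Its log2 ratio of LP4 over Ctrl was 4.68 on the Apoe side (3.30 to 6.57, from 4 and 189 UMIs), 3.23 in the middle and 2.55 on the Fgf13 side (1.76 to 3.45). In S-like and G2/M-like cells the ratios of 1.16 and 1.00 have intervals that reach below 0. A further 65 of the 779 LP4 UMIs came from 26 dendritic-like cells, set aside for at least 20 UMIs per 10000 of *H2-Aa*, *H2-Ab1* and *H2-Eb1*, where the level was 230 CPM (177 to 293) against 0 UMIs in the 26 such cells of Ctrl and 1 UMI in the 26 of LP1. The name rests on these MHC class II genes alone. Of the other dendritic cell genes listed, *Zbtb46* was 2.16, 2.46 and 1.03 CPM over all cells, and *Flt3* and *Cd209a* were at most 0.229 CPM. Whether these are dendritic cells was not tested. In Ctrl 13 of the 64 UMIs came from 1 stromal-like cell, and in LP4 17 of the 779 came from 6 such cells. Without the neutrophil-like, dendritic-like and stromal-like cells the log2 ratio of LP4 over Ctrl was 3.05, and the mean level of *Ccnd2* then fell under the 5 CPM needed to be called.

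*Cdk6* was the gene of the 8 with class intervals clear of 0 on both sides in LP4 over Ctrl. On the Apoe side it stood at 212 CPM in Ctrl (200 to 224), 239 CPM in LP1 (229 to 250) and 448 CPM in LP4 (435 to 461), while on the Fgf13 side it stood at 405 CPM (391.5 to 418.5), 463 CPM (451 to 476) and 317 CPM (309 to 326). The Apoe side was thus lowest of the 5 classes in Ctrl and LP1 and highest in LP4. The log2 ratio of LP4 over Ctrl was 1.08 on the Apoe side (0.99 to 1.17). With CPM it was below 0 in the other 4 classes, from -0.41 in S-like cells (-0.60 to -0.22) to -0.15 in G2/M-like cells (-0.28 to -0.03). Ratios within classes were not run with the other scalings, which moved the ratio over all cells from -0.04 to 0.13 and 0.17. The sign of the smaller negative ratios may thus depend on the scaling. Thinned to 2000 UMIs, 29.9% of Apoe side cells had a *Cdk6* UMI in Ctrl (27.5 to 32.5), 32.9% in LP1 (30.2 to 35.8) and 53.9% in LP4 (50.8 to 56.8). In LP1 all 5 classes lay close together, with log2 ratios to Ctrl of 0.08 to 0.21.

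*Cdkn1a* was higher on the Apoe side than on the Fgf13 side in every library, at 577, 726 and 562 CPM against 343, 458 and 354 CPM. Its log2 ratios of LP4 over Ctrl ran from -0.19 in G2/M-like cells to 0.14 in S-like cells, and all 5 were above 0 in LP1, from 0.26 to 0.42. *Cdkn1b* was likewise higher on the Apoe side in Ctrl, at 73.9 CPM (67.0 to 81.3) against 31.8 CPM (28.2 to 35.8), and stood at 34.2 CPM there in LP4 (30.8 to 38.0), a log2 ratio of -1.11 (-1.32 to -0.90). In G2/M-like cells *Cdkn1b* was 48.0, 51.3 and 51.9 CPM, with a ratio of 0.11 (-0.22 to 0.45).

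*Myc* was higher on the Fgf13 side than on the Apoe side in Ctrl, at 11.0 CPM (8.93 to 13.5) against 2.997 CPM (1.75 to 4.80). In LP4 it was lower in all 5 classes, with log2 ratios to Ctrl from -2.91 on the Fgf13 side (-3.62 to -2.25) to -2.16 in S-like cells (-4.54 to -0.44, from 24 and 3 UMIs). Of the 86 LP4 UMIs 8 came from 27 neutrophil-like cells, at 36.2 CPM (15.6 to 71.4), where Ctrl had 0 UMIs and LP1 had 1. The neutrophil-like cells are 0.578% of LP4 cells, and without them and the dendritic-like and stromal-like cells the log2 ratio of LP4 over Ctrl was -2.79. The sums over a library cannot tell fewer cells with a transcript from less transcript per cell, and the classes and thinned shares above bear on that only in part.

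**Figure D3:**
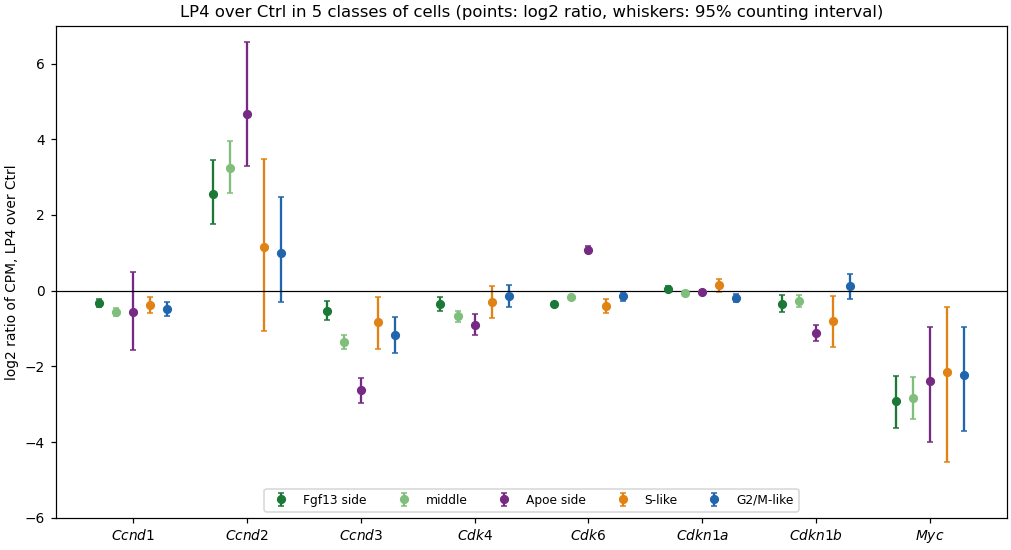
Log2 ratio of CPM, LP4 over Ctrl, for each gene in the 5 classes of cells, with 95% counting intervals. *Cdk6* is at 1.08 on the Apoe side and below 0 in the other classes, *Ccnd3* runs from -2.62 on the Apoe side to -0.53 on the Fgf13 side, and *Myc* is below 0 in every class.

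The D cyclins were also set against each other as shares of their summed UMIs. UMIs are 3′ tags that are not corrected for how well each transcript is captured, so shares are compared between libraries and classes and not between genes. Over all cells *Ccnd1* gave 73.0%, 82.7% and 71.9% of the D cyclin UMIs, *Ccnd2* gave 1.25%, 0.806% and 13.0%, and *Ccnd3* gave 25.8%, 16.5% and 15.1%. The share of *Ccnd2* was thus apart in LP4, while that of *Ccnd3* was lower in both treated libraries.

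Shares of the summed D cyclin UMIs are compared here for each gene between libraries and not between genes. On the Apoe side *Ccnd3* gave 94.4% of the 355 D cyclin UMIs in Ctrl (91.4 to 96.5), 88.6% of the 402 UMIs in LP1 (85.0 to 91.5) and 32.4% of the 309 UMIs in LP4 (27.2 to 37.9). *Ccnd2* gave 1.13% (0.308 to 2.86), 2.24% (1.03 to 4.21) and 61.2% (55.5 to 66.6). These are shares of UMIs and not of cells. On the Apoe side of LP4 the 189 *Ccnd2* UMIs came from 94 of 1093 cells (8.6%, without thinning). Those cells had a mean of 2.01 *Ccnd2* UMIs, while the intervals take each UMI as independent. The summed D cyclin level on the Apoe side was 62.6, 48.1 and 29.6 CPM, lowest in LP4. In S-like cells *Ccnd1* gave 88.0%, 91.8% and 89.9%, with *Ccnd2* at 0.570%, 0.421% and 1.68%. After thinning 19.7% (18.7 to 20.8), 23.7% (22.5 to 24.9) and 13.4% (12.5 to 14.4) of cells had a UMI of any D cyclin, and 0.924%, 1.19% and 0.541% had UMIs of more than 1.

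**Figure D4:**
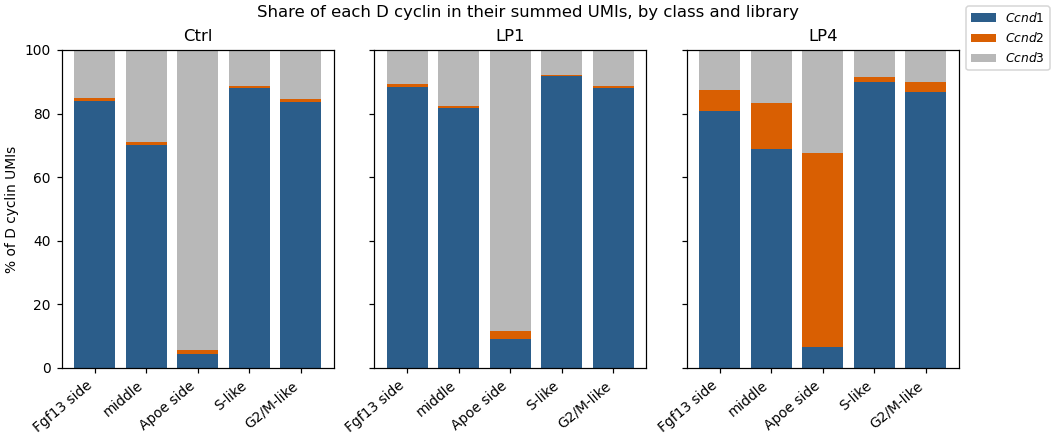
Percent of D cyclin UMIs from *Ccnd1*, *Ccnd2* and *Ccnd3* in the 5 classes of each library, stacked to 100%. Of these UMIs on the Apoe side 94.4% were *Ccnd3* in Ctrl and 61.2% were *Ccnd2* in LP4. Without thinning 8.6% of the LP4 Apoe side cells had a *Ccnd2* UMI.

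The other genes of the pathway were taken from lists, described by their counts and medians. A gene whose LP4 level is under 5 CPM passed the minimum only through Ctrl and LP1, so the filter favoured a lower call. Among the genes named below this holds for *Mnt*, *Ccne2*, *E2f2*, *Dtl*, *Ung*, *Skp2*, *Fbxo31* and *Plk3*. Of the list called the MAX network, 9 of 12 genes were at a mean of at least 5 CPM. In LP4 over Ctrl 2 of them were higher and 5 lower, against 19.1% and 23.6% of all genes, with a median log2 ratio of -0.81. *Mxd1*, a repressor that competes with MYC for MAX, was 24.0, 18.2 and 150.5 CPM (log2 ratio of LP4 over Ctrl 2.65), and *Max* itself was 30.9, 33.5 and 71.4 CPM (1.21). *Mnt*, another MAX partner that represses, was 36.3, 31.9 and 2.02 CPM (-4.17), and *Mxd4* was 77.8, 71.1 and 26.6 CPM (-1.55). *Mxd1* was higher while *Mnt* and *Mxd4*, which also repress, were lower, and no gene of this list was called in LP1 over Ctrl.

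Of 21 growth genes regulated by MYC that were tested of 22, for ribosome making and biosynthesis, 0 were higher and 8 lower in LP4 over Ctrl, against 19.1% and 23.6% of all genes. The median log2 ratio was -0.53 against -0.09 for all genes. With TMM scaling 1 was higher and 5 lower (median -0.37), and with median-of-ratios scaling 1 and 4 (median -0.33). Of all genes 25.3% were higher and 16.7% lower in LP4 over Ctrl with TMM scaling (median 0.08). With median-of-ratios scaling 26.7% were higher and 15.4% lower (median 0.12). Rescaled LP4 over Ctrl counts of the lists below are to be set against these shares. *Apex1*, a DNA repair enzyme, was 33.4, 33.5 and 14.8 CPM in Ctrl, LP1 and LP4 (LP4 over Ctrl -1.17), and *Ppan*, a ribosome assembly factor, was 13.5, 13.3 and 6.40 CPM (-1.08). *Srm*, spermidine synthase, had the lowest ratio of LP4 over LP1 in the list, -1.19. None was called in LP1 over Ctrl.

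Of 8 G1/S cyclins and kinases, 3 were higher and 1 lower in LP4 over Ctrl (median 0.09), where 19.1% and 23.6% of all genes were. *Cdk2*, the kinase of cyclins E and A, was 4.40, 5.09 and 9.10 CPM (1.05), and *Ccne2*, cyclin E2, was 6.59, 6.59 and 2.997 CPM (-1.14). The mean of *Cdk2* passed the 5 CPM minimum through its LP4 level, so the filter favoured its call. Of the RB and E2F family 12 of 13 were tested, with 3 higher and 5 lower (median -0.32), and 4 and 5 with either other scaling. The activators *E2f1*, at 26.7, 25.7 and 12.1 CPM (-1.14), and *E2f2*, at 11.7, 12.6 and 2.93 CPM (-1.99), were lower and *E2f5*, at 11.9, 10.6 and 25.6 CPM (1.11), and *E2f4*, at 9.02, 14.1 and 16.4 CPM (0.86), which pair with the RB relatives, were higher. The rest of those called were *E2f8* (-0.92), *Tfdp2* (-0.84) and *E2f3* (-0.82), lower, and *Rbl1* (0.84), higher. No split of the family by function is read from the genes named.

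Of 5 other CDK inhibitors 2 were tested, and both were higher in LP1 and in LP4 over Ctrl, where 4.17% and 19.1% of all genes were higher. *Cdkn2c* (p18), an inhibitor of CDK4 and CDK6, was 6.75, 14.5 and 14.1 CPM, with log2 ratios of 1.11 and 1.06, and *Cdkn2d* (p19), of the same family, was 13.5, 21.1 and 26.8 CPM, with ratios of 0.65 and 0.99. *Cdkn2a*, *Cdkn2b* and *Cdkn1c* were below the minimum level. Their log2 ratios of LP4 over Ctrl were -0.50 (-0.91 to -0.09), -0.61 (-1.12 to -0.09) and -0.28 (-0.55 to 0.00). The 2 higher genes thus do not stand for all 5.

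Of 18 S phase genes tested of 20, 1 was higher and 10 lower in LP4 over Ctrl (median -0.86), against 19.1% and 23.6% of all genes. In LP1 over Ctrl 3 were higher and 0 lower (median 0.18), against 4.17% and 2.84%. With either other scaling 5 were higher, against 5.58% (TMM) and 5.7% (median-of-ratios) of all genes. *Pcna*, the sliding clamp, was 104.5, 196 and 230 CPM (LP4 over Ctrl 1.14), against *Dtl*, which marks CDT1 for destruction, at 7.48, 10.0 and 1.08 CPM (-2.80) and *Ung*, a base repair enzyme, at 5.72, 8.33 and 1.37 CPM (-2.06). Of 20 G2 and mitosis genes tested of 23, 2 were higher and 3 lower in LP4 over Ctrl (median -0.35), with *Cdk1*, the mitotic kinase, at 6.87, 16.0 and 15.5 CPM (1.17), and 3 were higher and 2 lower with TMM scaling and 3 and 1 with median-of-ratios scaling. These lists also define the S-like and G2/M-like classes.

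Of 13 p53 targets tested of 19, 4 were higher and 5 lower in LP4 over Ctrl (median -0.19), against 19.1% and 23.6% of all genes, beside a *Cdkn1a* that differed little. With TMM scaling 4 were higher and 4 lower, and with median-of-ratios scaling 4 and 3 (median 0.01). *Ddit4*, a stress inhibitor of mTOR, was 2.55, 2.10 and 21.6 CPM (3.08) and *Fas*, a death receptor, 21.1, 15.9 and 82.3 CPM (1.96), while *Plk3*, at 22.6, 24.2 and 3.94 CPM (-2.52), and *Plk2*, at 197, 259.5 and 60.8 CPM (-1.70), were lower. *Ddit4* reached the 5 CPM minimum only through its LP4 level, so the filter favoured its call. The p53 targets under the minimum all had ratios of LP4 over Ctrl below 0, from -1.93 (*Phlda3*) to -0.81. The counts of 4 and 5 are therefore not read as a balance. Of 9 antiproliferative genes 3 were higher and 4 lower (median -0.49), and 3 and 3 with median-of-ratios scaling. *Btg2*, which slows G1 progression, was 44.1, 85.2 and 12.2 CPM, with log2 ratios of 0.95 in LP1 and -1.85 in LP4 over Ctrl. Of 6 turnover factors 1 was higher and 2 lower (median 0.15), and with TMM scaling the counts were 2 and 2, with median-of-ratios scaling 2 and 1. The list holds *Skp2*, part of the ligase for p27, at 7.17, 6.59 and 4.25 CPM (-0.75) and *Fbxo31*, an F-box protein, at 10.7, 8.48 and 2.05 CPM (-2.38).

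**Figure D5:**
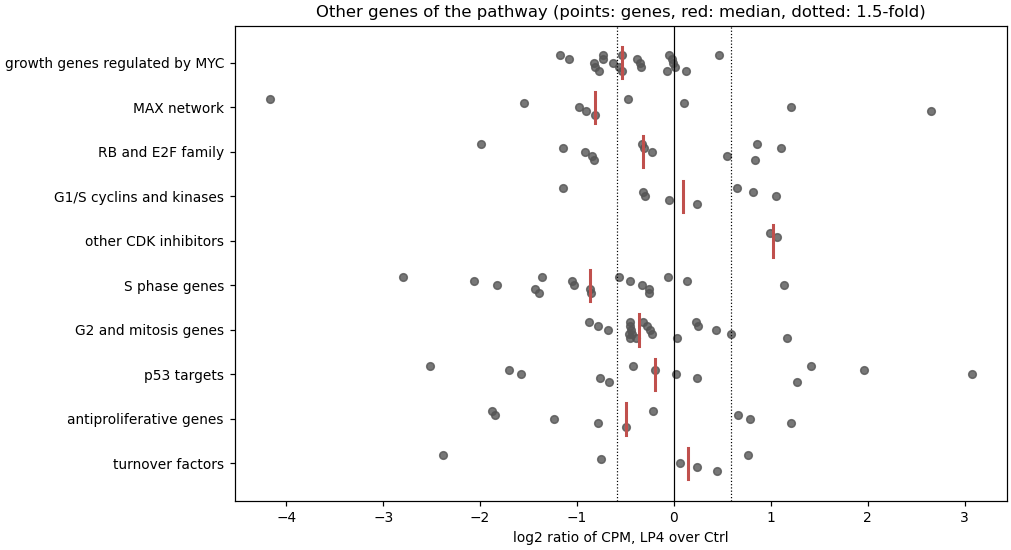
Log2 ratio of CPM, LP4 over Ctrl, of each gene of 10 pathway lists at a mean of at least 5 CPM, with the median of each list in red and 1.5-fold marked by dotted lines. The S phase genes have a median of -0.86 and the growth genes regulated by MYC one of -0.53, and the MAX network spans -4.17 (*Mnt*) to 2.65 (*Mxd1*).

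The genes most like each of the 8 were found by Pearson's r of log2(CPM + 1) over 15 points, the 5 classes of 3 libraries, among 3129 genes with a mean of at least 50 CPM. The points share libraries, and the values are descriptions. For *Ccnd1* they were *Itga6* (0.990), *Ap1s1* (0.989) and *Dera* (0.972), and for *Cdk4* they were *Dnmt1* (0.978), *Parp1* (0.971) and *Eid1* (0.970). For *Ccnd2* they were *Ankib1* (0.963), *Dgkh* (0.958) and *Ktn1* (0.955), and for *Ccnd3* they were *Wwox* (0.965), *Osbpl3* (0.958) and *B4galt1* (0.937). For *Myc* they were *Dgkd* (0.975), *Pam* (0.975) and *Tmem147* (0.958). *Cdk6* was most like *Cdk14* (0.930), *Rsbn1* (0.905) and *Mat2a* (0.886), *Cdkn1a* most like *Alox5ap* (0.919), *Ier3* (0.837) and *Stx6* (0.823), and *Cdkn1b* most like *Crybg3* (0.880), *Ankrd28* (0.876) and *Nsmce2* (0.862).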

How the data were processed

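RNA of single BMDMs was measured in 3 libraries, Ctrl, LP1 and LP4, from pooled wells. The authors deposited raw UMI counts, made with Cell Ranger (version 7.1.0 in the submitters' processing notes) on mouse mm10. Whether intronic reads were counted is not given in the sources used here. Cells with over 500 UMIs, over 500 genes and under 5% mitochondrial UMIs were kept. Sums of counts over a library or class gave CPM. All intervals are at 95%: Poisson (exact) for a level, binomial given the summed count for a log2 ratio, and Clopper-Pearson for a share. Neither log ratios nor shares were tested, since each condition has 1 library and cells are not replicates. A gene at 0 counts had a floor of 3 counts. Called means at least 1.5-fold at a mean of at least 5 CPM. No doublet caller was run, and an alternative drops the 5% of cells with the most UMIs. Thinning used 2000 UMIs and a seed of 20. Tested on simulated data, all 200 changed genes of the 9057 were called in each comparison (100%). There 95% to 96% of the intervals held the true ratio. Calling of genes near 1.5-fold was not tested there. The counts were drawn from a Poisson model, as the intervals assume, with every changed gene set well past 1.5-fold. Both results were thus built in and check the code only. With 200 genes changed, scaling where many genes change was not tested. The intervals cover counting error only and leave out spread between cells or cultures. After thinning, a *Ccnd1* UMI was seen in 18.5% of LP1 cells, where a Poisson spread at the same mean gives 23.5%. For *Cdk4* in Ctrl these values were 9.06% and 9.01%. Where UMIs gather in part of the cells, as for *Ccnd1*, the intervals are narrower than that spread would make them. The part of either spread in the ratios was not tested. Whether ratios near 1.5-fold, such as those of *Cdk4* and *Ccnd1* in LP4 over Ctrl, keep their side of that fold in other cultures was not tested.

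The text names the 8 genes, genes that are among the 2 most changed in each direction of those called in a pathway list and comparison, and the 3 most alike genes of each of the 8. Some other genes of the lists are named to show what these do not stand for. The 8 genes and the lists were chosen with earlier results of these data known. Positions are those of GENCODE vM21 on GRCm38. TMM factors came from edgeR 4.0.16 in R 4.3.3, and the rest from scipy 1.17.1, numpy 2.4.6, matplotlib 3.10.9 and pandas 2.3.3 under Python 3.11.15. Alternatives were other cell filters, scalings, sets of cells, folds, minimum levels, thinning depths and class limits.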

Additional observations from a re-analysis of the deposited data

Results flagged for a closer look

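*Cdk6* moved in opposite directions in different classes of the same libraries, and the difference between the classes was not tested. In LP4 over Ctrl its log2 ratio was 1.08 on the Apoe side, from 212 to 448 CPM, and -0.41 in S-like cells, from 459 to 345 CPM. In LP4 over LP1 it was 0.90 on the Apoe side and -0.57 in S-like cells. In both comparisons the counting intervals of the 4 classes other than the Apoe side lie below 0 with CPM. Ratios within classes were not run with the other scalings, so the sign of the smaller ones may depend on the scaling. The Apoe side is set by rank within each library, so its cells in LP4 need not correspond to those in Ctrl, and the part of that ranking in the result was not tested.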

How the results depend on the processing

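*Ccnd1* in LP1 over Ctrl was called with TMM scaling, with median-of-ratios scaling and with the mean of per-cell shares, which makes the count of genes called higher 1 in place of 0. Without neutrophil-like, dendritic-like and stromal-like cells 0 genes were called higher in LP4 over Ctrl and in LP4 over LP1, since *Ccnd2* then had a mean under 5 CPM, while its log2 ratios were 3.05 and 3.11. *Cdk4* in LP4 over Ctrl lost its call with both scalings, at -0.42 and -0.39, and with all deposited barcodes or no mitochondrial limit. *Ccnd1* in LP4 over Ctrl was called lower with CPM without mitochondrial and ribosomal protein genes, at -0.61. TMM scaling moved the median log2 ratio of all genes in LP4 over Ctrl from -0.09 to 0.08 and median-of-ratios scaling to 0.12. Both were applied to the pathway lists after the data had been seen. With the cycling limit raised to 40 UMIs per 10000, *Ccnd2* in S-like over middle cells of LP4 was 3.96 in place of -1. The -1 rests on 5 UMIs in S-like cells (-2.63 to 0.24). These 55 cells had a median of 24.8 S phase UMIs per 10000, so most leave the class at the raised limit. A class at 0 counts takes the floor of 3 counts, so the 3.96 is not read as a difference. *Ccnd3* in S-like over middle cells of LP1 was -0.06 in place of 0.65. No called ratio between libraries changed sign in 9 settings, and *Myc* in LP4 over Ctrl ranged from -2.79 to -2.39 and *Ccnd3* from -1.41 to -1.13. No paired analysis was possible because each group is 1 library. With 1 library a group the spread between cultures is unknown.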
